A study of Mus musculus with 20 samples.

Results

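The expression of 10 genes known to be induced by glucocorticoids was followed in the amygdala of 20 mice. They were Sgk1, Tsc22d3, Zbtb16, Cdkn1a, Ddit4, Klf9, Errfi1, Per1, Dusp1 and Nfkbia, chosen by symbol, and they are 10 of the 29671 genes in the count table. All 10 passed the filter on low counts, as did 16727 genes in all. The mice were male C57B6 at postnatal day 84, bred in house from Taconic stock, and had not been tested for behaviour. They were of generation F1 or F2 after a chronic unpredictable stress procedure, or of the matching generation of a lineage without stress. The 4 groups of 5 mice are named here by generation and lineage, as in F1 stress or F2 no-stress: none of these names says that a sampled mouse was itself stressed. All mice shared strain, sex, age and dissection, a bilateral punch of the amygdala, and no group carried an engineered allele or a drug. The labels name no litter, sire or date for any mouse, so littermates cannot be told apart from unrelated mice, and the p-values measure only the spread between these samples.

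Glucocorticoids, corticosterone in the mouse, are released by the adrenal cortex with the daily rhythm and in response to stress. In the cell they bind the glucocorticoid receptor (gene Nr3c1) and, with higher affinity, the mineralocorticoid receptor (gene Nr3c2). The bound receptor enters the nucleus, attaches to DNA at paired copies of a short sequence, and raises the transcription of a set of genes that differs between tissues. The amygdala expresses both receptors and is one of the brain regions in which stress hormones act on fear and anxiety. The genes described here carry different parts of the response. Tsc22d3 (the leucine zipper protein GILZ) and Nfkbia (the inhibitor that holds NF-kappa-B in the cytoplasm) restrain inflammatory transcription. Dusp1, a phosphatase of MAP kinases, and Errfi1, a feedback inhibitor of the EGF receptor, dampen growth factor signalling, and Ddit4 inhibits the growth-promoting kinase complex of mTOR. Sgk1 is a kinase that acts on ion channels and transporters, Cdkn1a is an inhibitor of cyclin-dependent kinases, Per1 is a repressor of the circadian clock, and Klf9 and Zbtb16 are zinc finger transcription factors.

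RefSeq start sites on GRCm38.p6 gave 19 windows of the 250 bases before a start, for 9 of the 10 genes. The windows were searched on both strands for letters that receptors and other stress-responsive factors are known to bind. The 4 windows shown were chosen because they hold the full receptor palindrome, a full cyclic AMP response element or an E-box. They are written 5′ to 3′ on the strand of the gene, with matches to the searched letters in capitals, TATAAA left in lower case, and the windows of Per1 and Dusp1 ended before an annotated exon.

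Sgk1: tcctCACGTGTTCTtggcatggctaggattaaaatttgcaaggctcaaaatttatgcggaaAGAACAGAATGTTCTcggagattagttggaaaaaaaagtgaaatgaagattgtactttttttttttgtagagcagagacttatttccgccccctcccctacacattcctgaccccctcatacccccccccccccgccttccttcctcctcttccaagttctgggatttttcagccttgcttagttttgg
Errfi1: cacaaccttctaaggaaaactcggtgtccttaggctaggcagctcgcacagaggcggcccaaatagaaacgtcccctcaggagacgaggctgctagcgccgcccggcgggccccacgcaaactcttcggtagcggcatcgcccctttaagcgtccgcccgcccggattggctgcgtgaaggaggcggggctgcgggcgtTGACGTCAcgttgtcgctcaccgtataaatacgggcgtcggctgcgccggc
Per1: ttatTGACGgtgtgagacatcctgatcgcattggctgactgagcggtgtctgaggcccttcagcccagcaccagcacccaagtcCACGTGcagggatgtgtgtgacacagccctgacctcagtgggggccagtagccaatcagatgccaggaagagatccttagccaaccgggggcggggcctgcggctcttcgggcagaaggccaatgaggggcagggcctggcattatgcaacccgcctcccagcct
Dusp1: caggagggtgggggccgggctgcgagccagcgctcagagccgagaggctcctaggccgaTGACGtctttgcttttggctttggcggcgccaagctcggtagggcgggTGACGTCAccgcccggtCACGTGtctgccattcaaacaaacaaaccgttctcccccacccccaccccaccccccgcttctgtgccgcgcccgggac

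The Sgk1 window (chr10:21993640-21993889, plus strand, GRCm38.p6) lies before one of 6 annotated starts of that gene. It holds a full glucocorticoid receptor palindrome, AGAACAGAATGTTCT, that begins at position -189 from the start. The letters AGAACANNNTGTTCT were found in 3 of 32851 mouse windows (0.009%). The same window has a further half-site, TGTTCT, whose letters overlap a CACGTG at position -246. AGAACA or its reverse complement was found in 16.1% of all windows, for 18.2% of all genes, and among the 9 genes in windows of Sgk1 and Tsc22d3. The central letters ACANNNTGT, present in 5.84% of windows and for 6.76% of all genes, were found for Sgk1. Genes with several windows, as Sgk1 has, offer more places for a match.

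The Errfi1 window (chr4:150854820-150855069, plus strand) holds TGACGTCA at position -51, the letters of the cyclic AMP response element, and a TATAAA at position -28. The gene of an antisense RNA, 1700045H11Rik, overlaps the Errfi1 gene on the opposite strand. The Dusp1 window (chr17:26508520-26508722, minus strand) holds TGACGTCA at position -143 and CACGTG, the E-box of clock factors, at position -126. TGACGTCA was found in 1.55% of all windows, for 1.77% of all genes and for 2 of the 9 genes. The shorter TGACG, which TGACGTCA contains, was found in 17.8% of windows, for 19.8% of all genes and for 6 of the 9 genes. The Per1 window (chr11:69098699-69098947, plus strand) holds CACGTG at position -166. That E-box was found in 6.02% of windows, for 6.86% of all genes and for 3 of the 9 genes. A match to the kappa-B consensus, found in 7.25% of windows and for 8.23% of all genes, stood at position -29 of Nfkbia. TATAAA was found in 12.4% of windows, for 14.3% of all genes and for 2 of the 9 genes. These matches describe letters in short windows, and receptor binding was not measured here.

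All 10 genes were expressed in every mouse, with at least 62 counts in any library. Totals ran from 13654890 to 13714805 counts per library, a near-equality that the labels do not explain, so the depth at which the libraries were sequenced is unknown. The punches differed in neuronal makeup within every group: the summed level of 10 striatal neuron markers was lowest in replicate 14 (F2 stress, 793 CPM), and that of 10 pallial excitatory neuron markers was lowest in replicate 20 (F2 no-stress, 339 CPM). Results that turned without these libraries are given with and without both. CPM are counts scaled to a common library total, with TMM factors, and gene values are given as means ± SD of 5 mice. Per kilobase of annotated exon, Klf9 had the highest level (24.7 CPM per kilobase over all 20 mice). Per1 (13), Ddit4 (12.8), Sgk1 (12.3) and Tsc22d3 (11.7) followed at levels closer to each other than mice of 1 group were, and Nfkbia (7.57), Errfi1 (6.54) and Dusp1 (5.83) came next. Cdkn1a (3.06) and Zbtb16 (1.76) were the lowest.

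The genes differed in how much they varied between mice. The coefficient of variation within groups, averaged over the 4 groups, was 34.4% for Zbtb16, 29.1% for Cdkn1a, 25.0% for Dusp1, 23.7% for Klf9 and 23.6% for Sgk1. Genes of like level, within 1.5-fold, had medians of 15.4%, 14.6%, 12.6%, 10.6% and 10.5%, so these 5 varied more than most genes as abundant. Tsc22d3 (15.5% against 10.8%) and Per1 (13.9% against 10.4%) were also above their peers. Nfkbia (14.4% against 14.2%) and Ddit4 (11.8% against 12.2%) were close to theirs, and Errfi1 was the steadiest, at 9.25% against 12%.

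**Figure D1:**
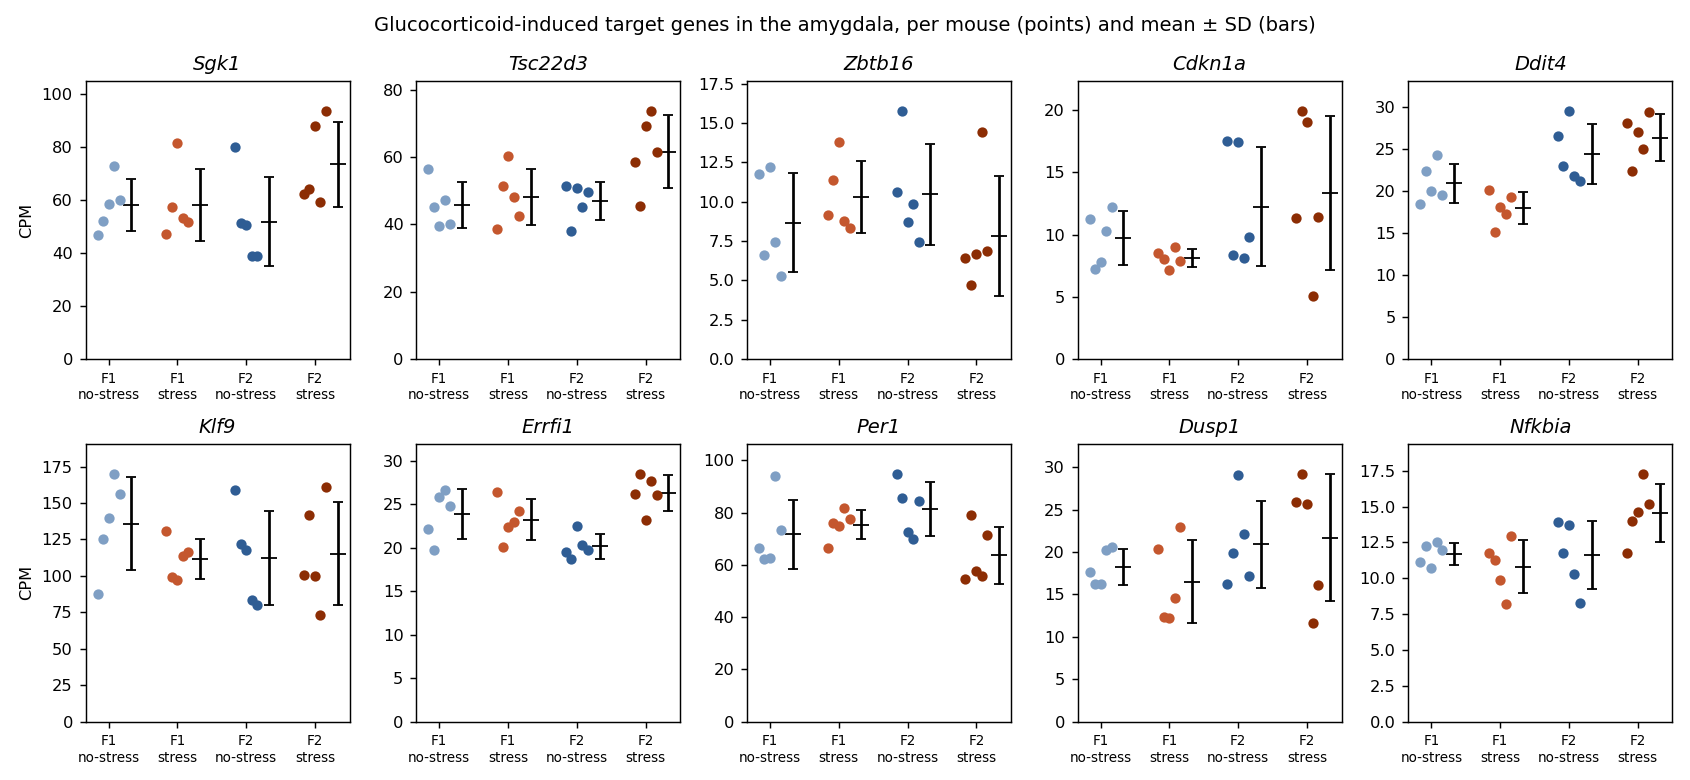
CPM of each of the 10 genes in each mouse (points) with the mean ± SD of the 5 mice (black bars), for the 2 lineages in each generation. Errfi1 is the gene whose F2 stress mice all lie above the F2 no-stress mice, and Ddit4 the gene whose F2 stress mice all lie above the F1 stress mice.

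The main question of the design is whether the lineage is seen in gene expression, and in F2 the genes of the set did not move as one. Errfi1 rose in the F2 stress lineage, by 1.31-fold. Sgk1, Tsc22d3 and Nfkbia had higher means in F2 stress mice without passing the test, and Per1 and Zbtb16 had lower ones, with the sign of Per1 turning under an offset for GC content. In this comparison 1 of the 10 genes was called at an adjusted p below 0.05 (edgeR quasi-likelihood test with Benjamini-Hochberg adjustment over all genes), where 7.92% of the 16727 genes tested were called. The share called higher was 2.64% of genes and the share called lower 5.28%. Without adjustment 5 of the 10 had a p below 0.05, against 25.6% of all genes. The median log2 fold change of the 10 was 0.12, that of all genes 0.00, and 8 of the 10 estimates were positive.

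Errfi1 stood at 26.2, 28.6, 23.2, 27.7 and 26.1 CPM in the 5 F2 stress mice and at 19.5, 18.7, 22.6, 20.3 and 19.8 CPM in the 5 F2 no-stress mice. The lowest F2 stress mouse was above the highest F2 no-stress mouse. Groups that do not overlap were found for 4.61% of all genes in this comparison, and for Errfi1 alone among the 10. The group means were 26.4 ± 2.06 and 20.2 ± 1.44 CPM (SD, n = 5), a log2 fold change of 0.38 ± 0.093 (SE; 95% interval 0.19 to 0.58; edgeR adjusted p = 0.0188). The F1 groups lay between, at 23.9 ± 2.86 CPM in no-stress and 23.3 ± 2.33 CPM in stress mice. The F2 no-stress mean was thus below both F1 means and the F2 stress mean above both.

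The Errfi1 call ended in several settings that hardly moved its size. Adjusted p was 0.0947 with only the F2 groups in the fit and 0.111 with an offset for GC content and length (log2 fold change 0.34). It was 0.0556 and 0.0549 without F2 stress replicate 11 or 12, and 0.0535 and 0.0576 without F2 no-stress replicate 16 or 17, with log2 fold changes from 0.35 to 0.43 over the 20 single libraries left out.

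Sgk1 was measured at 62.4, 64.2, 87.7, 59.3 and 93.6 CPM in F2 stress mice and at 79.8, 51.1, 50.4, 38.7 and 38.7 CPM in F2 no-stress mice. The first F2 no-stress mouse, replicate 16, lay above 3 of the 5 F2 stress mice, and the other 4 lay below all of them. The log2 fold change was 0.51 ± 0.195 (73.4 ± 15.9 against 51.7 ± 16.8 CPM; edgeR adjusted p = 0.110). Without replicate 16 it was 0.72 with an adjusted p of 0.0413. It also passed with 1 surrogate variable estimated from the data (0.0394) and with the striatal, pallial and oligodendrocyte marker scores as covariates, called composition scores here (0.0409). These scores were centred within each group, so they take up spread between mice of a group, not a difference in makeup between groups. With the offset for GC content and length the adjusted p of Sgk1 rose to 0.283.

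Tsc22d3 was measured at 58.5, 45.3, 69.2, 73.8 and 61.4 CPM in F2 stress mice and at 51.3, 38.0, 50.8, 45.3 and 49.7 CPM in F2 no-stress mice. Of the 5 F2 stress mice, 4 were above every F2 no-stress mouse, and the fifth, replicate 12, lay among the lower ones. The log2 fold change was 0.39 ± 0.136 (61.6 ± 11 against 47.0 ± 5.57 CPM; edgeR adjusted p = 0.0765). The call was gained with DESeq2 (adjusted p = 0.0458), with 1 surrogate variable (0.0497), with composition scores (0.00856) and without F2 stress replicate 12 (0.0467). With the offset for GC content and length the edgeR adjusted p of Tsc22d3 rose to 0.238.

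Nfkbia had values of 11.8, 13.98, 14.6, 17.3 and 15.2 CPM in F2 stress mice and of 13.9, 11.8, 13.7, 10.3 and 8.30 CPM in F2 no-stress mice. The 2 groups overlapped at their edges. The log2 fold change was 0.33 ± 0.140 (14.6 ± 2.01 against 11.6 ± 2.37 CPM; edgeR adjusted p = 0.142), and no setting tried brought it past the threshold.

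Per1 had values of 54.7, 79.0, 57.7, 55.7 and 71.4 CPM in F2 stress mice and of 94.95, 85.8, 72.6, 69.8 and 84.4 CPM in F2 no-stress mice. Of the 5 F2 stress mice, 3 lay below every F2 no-stress mouse and 2 lay among them. The log2 fold change was -0.36 ± 0.123 (63.7 ± 10.9 against 81.5 ± 10.3 CPM; edgeR adjusted p = 0.0751). It passed with 1 surrogate variable (0.0392), with composition scores (0.0208), and without F1 no-stress replicate 9 (0.0488) or F2 stress replicate 15 (0.0451). With the offset for GC content and length it turned to 0.05 (adjusted p = 0.884).

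Zbtb16, which encodes a transcriptional repressor, had values of 6.42, 4.68, 6.67, 14.4 and 6.87 CPM in F2 stress mice and of 10.6, 15.8, 8.70, 9.87 and 7.43 CPM in F2 no-stress mice. All but 1 of the F2 stress mice were below every F2 no-stress mouse, and replicate 14 was above 4 of them. The log2 fold change was -0.42 ± 0.284 (edgeR adjusted p = 0.371). Without replicates 14 (F2 stress) and 20 (F2 no-stress), a setting added after the data were seen, it was -0.87 with an edgeR adjusted p of 0.0308. These mice held the highest F2 stress value and the lowest F2 no-stress value. None of the 20 fits with a single library left out passed (lowest edgeR adjusted p = 0.0542).

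The remaining 4 genes had F2 estimates closer to 0. The log2 fold change was 0.13 ± 0.288 for Cdkn1a, 0.11 ± 0.108 for Ddit4, 0.05 ± 0.227 for Dusp1 and 0.04 ± 0.212 for Klf9, with edgeR adjusted p-values from 0.543 to 0.941. Their 95% intervals were wide for Cdkn1a (-0.48 to 0.73), Dusp1 (-0.42 to 0.53) and Klf9 (-0.41 to 0.48), and narrower for Ddit4 (-0.11 to 0.34). Dusp1 shares its locus with Ergic1 and Gm8225, which lie on the opposite strand and have counts of their own. The strand setting of the counting is not given in the sources used here, so reads in the overlap cannot be told apart.

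**Figure D2:**
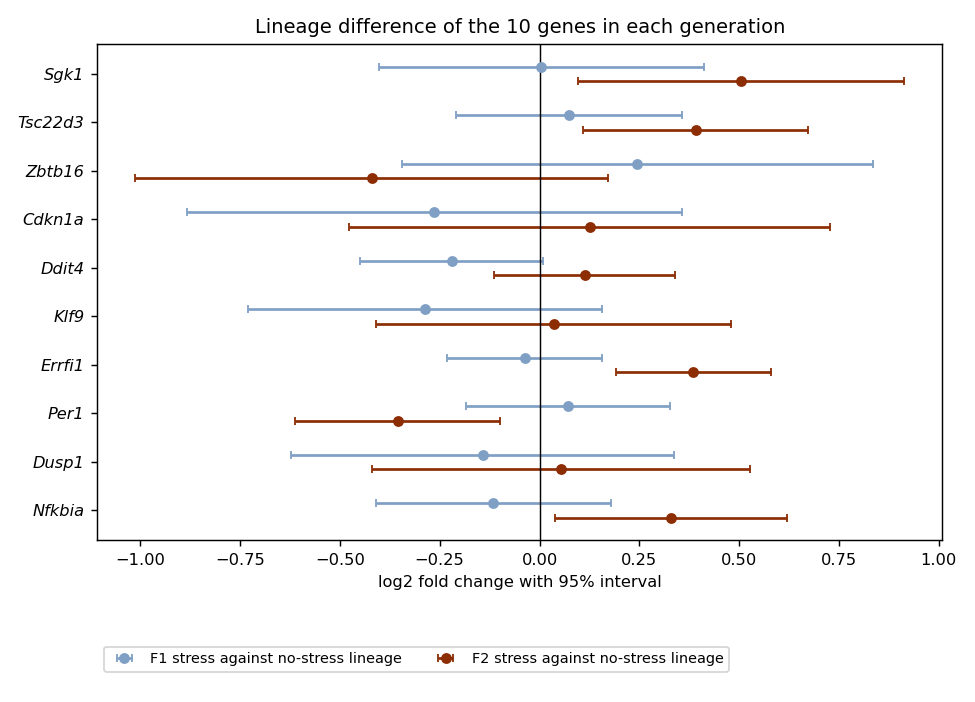
Log2 fold change of stress against no-stress lineage for each of the 10 genes in F1 (light blue) and F2 (dark red), with 95% intervals from the fit to all 20 libraries. Every F1 interval includes 0, and the F2 intervals of Sgk1, Tsc22d3, Errfi1, Per1 and Nfkbia do not.

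In the F2 comparison the estimates of several genes changed when a trend of the libraries with GC content was taken into account. The GC trend of a library is the median log2 deviation of the tenth of genes richest in GC minus that of the tenth poorest. It ran from -0.40 to 0.21 in F2 stress mice and from -0.10 to 0.61 in F2 no-stress mice. In F1 it ran from -0.27 to 0.12 in stress and from -0.40 to 0.13 in no-stress mice. The group mean was 0.34 in F2 no-stress, -0.19 in F2 stress and -0.07 in both F1 groups. The F2 no-stress mice thus stood apart, and they also enter the difference of the effects and the generation comparison of the no-stress lineage. Per1 (59.4% GC in its longest transcript) and Ddit4 (57.9%) are the richest of the 10, and Errfi1 and Klf9 (both 47.5%) the poorest. When the trend of log2 values with GC content and transcript length was fitted in every library and entered as an offset, the F2 log2 fold change of Ddit4 went from 0.11 to 0.42 ± 0.0954 (edgeR adjusted p = 0.0686). That of Cdkn1a went from 0.13 to 0.30 and that of Dusp1 from 0.05 to 0.20. The genes of lower GC moved less: Errfi1 was at 0.34, Sgk1 at 0.47, Tsc22d3 at 0.36 and Klf9 at -0.01. Nfkbia was at 0.40 and Zbtb16 at -0.27. The offset is itself a function of GC content and length, so which genes shift most is set by the offset. With the offset none of the 10 was called in F2 (5 at an unadjusted p below 0.05), where 8 genes of all were called (0.0479%, and 15.4% at an unadjusted p below 0.05). The median of the 10 was then 0.32, beside 0.04 for all genes.

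**Figure D3:**
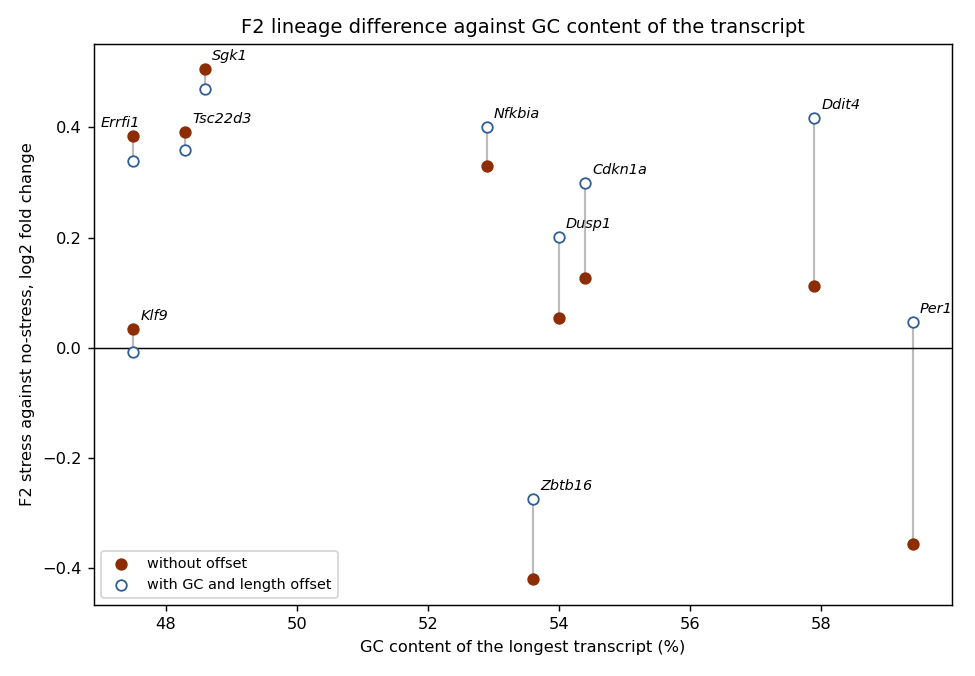
F2 log2 fold change of stress against no-stress lineage for each of the 10 genes against the GC content of its longest transcript (percent), from the fit without offset (filled) and with the GC content and length offset (open). Per1 at 59.4% GC crosses from -0.36 to 0.05 and Ddit4 at 57.9% rises from 0.11 to 0.42, while Errfi1, Klf9, Tsc22d3 and Sgk1, the poorest in GC, stay close to their first value.

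In F1 none of the 10 genes was called between the lineages. No gene of all 16727 was called by edgeR in that generation (0%, and 6.16% at an unadjusted p below 0.05, where DESeq2 called 2), and none of the 10 had an unadjusted p below 0.05. The lineages overlapped in all 10 genes, as they did in all but 1.24% of genes. Of the estimates, 4 were positive and 6 negative, with a median of -0.08 beside 0.00 for all genes. The smallest p belonged to Ddit4, with 17.98 ± 1.93 CPM in F1 stress and 20.9 ± 2.36 CPM in F1 no-stress mice, a log2 fold change of -0.22 ± 0.110 (edgeR adjusted p = 0.739). Klf9 (-0.29), Cdkn1a (-0.26) and Zbtb16 (0.24) had larger estimates with wider spread, and Sgk1 was at 0.00, with 58.2 and 58.0 CPM.

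The F1 intervals give the sizes that these data allow. That of Errfi1 ran from -0.23 to 0.16 on the log2 scale, below its F2 estimate of 0.38, and that of Per1 from -0.18 to 0.33. Those of Zbtb16 (-0.35 to 0.83), Cdkn1a (-0.88 to 0.36) and Klf9 (-0.73 to 0.16) span changes as large as any estimated in F2. With 1 surrogate variable the Klf9 estimate in F1 was 0.10, on the other side of 0.

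Whether the lineage effect differed between the generations was tested directly. None of the 10 genes was called (2.52% of all genes were, 1.68% as lower), and 4 of the 10 had an unadjusted p below 0.05, as did 21.2% of all genes. Errfi1 came closest: its F2 effect exceeded its F1 effect by 0.42 ± 0.132 on the log2 scale (edgeR adjusted p = 0.0766; 0.0342 with DESeq2 and 0.0352 with composition scores). The difference was 0.44 ± 0.199 for Nfkbia, 0.33 ± 0.154 for Ddit4 and -0.43 ± 0.174 for Per1, and with the offset for GC content and length that of Per1 turned to 0.03 and that of Ddit4 grew to 0.63. Sgk1 (0.50 ± 0.276) had a larger estimate than Errfi1 with a larger error. Zbtb16 was at -0.66 ± 0.400, and at -1.11 with an edgeR adjusted p of 0.0440 without replicates 14 and 20. With single libraries left out its lowest edgeR adjusted p was 0.0678. The median of the 10 was 0.33, and that of all genes -0.01. This test uses the same F2 mice as the F2 comparison, so the 2 sets of values are not independent.

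Within the stress lineage the F2 mice were compared with the F1 mice. Ddit4, the mTOR inhibitor, had the smallest p of the 10. It was measured at 28.1, 22.4, 27.1, 25.1 and 29.4 CPM in F2 stress mice and at 20.1, 15.1, 18.2, 17.2 and 19.3 CPM in F1 stress mice. The groups did not overlap, as for 0.777% of all genes in this comparison, and Ddit4 was the only one of the 10. Its log2 fold change was 0.55 ± 0.109 (unadjusted p = 5.57e-05, edgeR adjusted p = 0.155), a 1.47-fold higher mean that did not pass the test across all genes. It passed with DESeq2 (adjusted p = 0.00788), with the offset for GC content and length (0.61, adjusted p = 0.0204) and with composition scores (0.0410).

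None of the 10 was called in that comparison by edgeR, where 0.0120% of genes were, and 4 of the 10 had an unadjusted p below 0.05, as did 6.99% of genes. Nfkbia (log2 fold change 0.43 ± 0.140), Tsc22d3 (0.36 ± 0.136) and Cdkn1a (0.72 ± 0.294) were the other 3, with adjusted p-values from 0.643 to 0.668. Cdkn1a was tight in F1 stress mice, from 7.15 to 9.01 CPM, and wide in F2 stress mice, from 5.07 to 19.9 CPM. Of the 10 estimates 8 were positive, with a median of 0.35 beside 0.01 for all genes. This comparison uses the F2 stress mice again. Mice of different generations may also differ in when they were bred and processed, which the labels do not give, so generation and cohort cannot be told apart.

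In the no-stress lineage none of the 10 was called between F2 and F1 (2.0% of genes were called, and the groups of 4.52% did not overlap, of none of the 10). Errfi1 alone had an unadjusted p below 0.05 (0.0175), where 20.2% of genes did. Its mean was 20.2 ± 1.44 CPM in F2 and 23.9 ± 2.86 CPM in F1, a log2 fold change of -0.24 ± 0.0934 (edgeR adjusted p = 0.154). Ddit4 was at 0.22 ± 0.109 and Per1 at 0.18 ± 0.123, and with the offset for GC content and length they were at -0.01 and -0.13. The median of the 10 was 0.11, beside 0.02 for all genes.

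Variation between mice of the same group was examined next, on log2 CPM with the group mean subtracted. Over the 45 pairs of the 10 genes, Pearson's r was positive in 31 pairs and negative in 14, with a median of 0.15 (the 10 genes' median r with all genes was -0.00). None of the 45 pairs passed an adjusted p of 0.05 in a permutation test within groups. The strongest were Zbtb16 with Dusp1 (r = -0.62, Spearman's rho = -0.57, permutation p = 0.00598 and 0.00827, adjusted p = 0.241 and 0.278, r = -0.61 without the 2 farthest mice) and Klf9 with Per1 (r = 0.60, rho = 0.57, permutation p = 0.0220 and 0.0281, adjusted p = 0.241 and 0.278, r = 0.65 without 2 mice). Klf9 with Sgk1 (0.59) and Cdkn1a with Dusp1 (0.60) were also positive, and Tsc22d3 was negative with Dusp1 (-0.53) and Klf9 (-0.52).

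**Figure D4:**
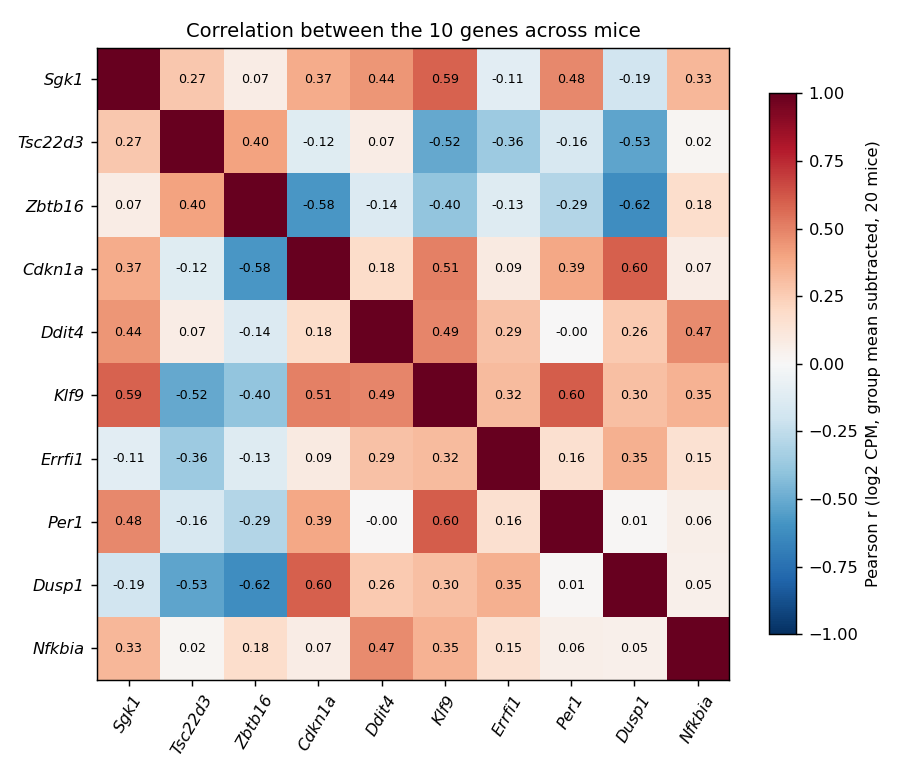
Pearson's r between the 10 genes over 20 mice, on log2 CPM with the group mean subtracted (red positive, blue negative). The highest value is 0.60 for Klf9 with Per1 and the lowest -0.62 for Zbtb16 with Dusp1, and none of the 45 pairs passed the adjusted threshold.

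Each gene was then set beside 11 scores of marker or pathway lists and the GC trend, 120 relations in all, of which 8 had an adjusted permutation p below 0.05. A score is the mean log2 CPM of a list. This family of tests was added after the data were seen. Bulk tissue holds many cell types, and fewer cells of a type cannot be told apart from less RNA per cell. The summed striatal markers ran from 793 to 7972 CPM over the 20 mice, and the summed pallial markers from 339 to 1795 CPM. No marker of any list was at 0 in any library.

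Klf9 varied with the striatal neuron score (r = 0.86, rho = 0.84, permutation p = 5e-05 and 0.0001, adjusted p = 0.00300, r = 0.81 without the 2 farthest mice). It varied still more closely with the score of 16 other clock genes (r = 0.93, rho = 0.95, permutation p = 1e-05 for both, the smallest that 100000 resamples can give, adjusted p = 0.00120, r = 0.92 without 2 mice). The striatal and clock scores moved together: in every group the same mouse was highest in both (replicates 1, 9, 15 and 16). The 2 relations are thus not separate results, and a relation of Klf9 to one score apart from the other was not tested. Klf9 was lowest in the mouse with the lowest striatal score in F2 stress (replicate 14, 73.2 CPM) and F1 no-stress (replicate 6, 87.8 CPM), and in another mouse in the remaining 2 groups.

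Dusp1 and Tsc22d3 varied with the score of 19 immediate early genes of neuronal activity, in opposite directions. For Dusp1 r was 0.75 (rho = 0.73, permutation p = 0.00071 and 0.00062, adjusted p = 0.0213, r = 0.72 without 2 mice). For Tsc22d3 r was -0.76 (rho = -0.66, permutation p = 0.0007 and 0.00494, adjusted p = 0.0213, r = -0.79 without 2 mice), and it was also negative with the pallial neuron score (r = -0.66, rho = -0.75, permutation p = 0.00106 and 0.00043, adjusted p = 0.0254, r = -0.71 without 2 mice). The immediate early and pallial scores partly shared their order. The same mouse was highest in both in F1 stress (replicate 1) and F2 stress (replicate 12), but not in the no-stress groups. The same mouse was lowest in both in every group (replicates 3, 7 and 20) but F2 stress. The 2 relations of Tsc22d3 are thus not separate results, and a relation to either score apart from the other was not tested. Tsc22d3 was the only one of the 10 with a passing relation to the score of the other glucocorticoid-induced genes (r = 0.65, rho = 0.71, permutation p = 0.00271 and 0.00118, adjusted p = 0.0463, r = 0.63 without 2 mice). Sgk1 had an r of 0.62 with that score and Nfkbia 0.52, without passing.

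Cdkn1a varied with the endothelial score (r = 0.74, rho = 0.69, permutation p = 0.00227 and 0.00298, adjusted p = 0.0454, r = 0.69 without 2 mice). Ddit4 varied with the microglia score (r = 0.60, rho = 0.77, permutation p = 0.00309 and 0.00053, adjusted p = 0.0463, r = 0.78 without 2 mice). Errfi1, Sgk1, Per1, Nfkbia and Zbtb16 had no relation that passed over the 12 measures.

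**Figure D5:**
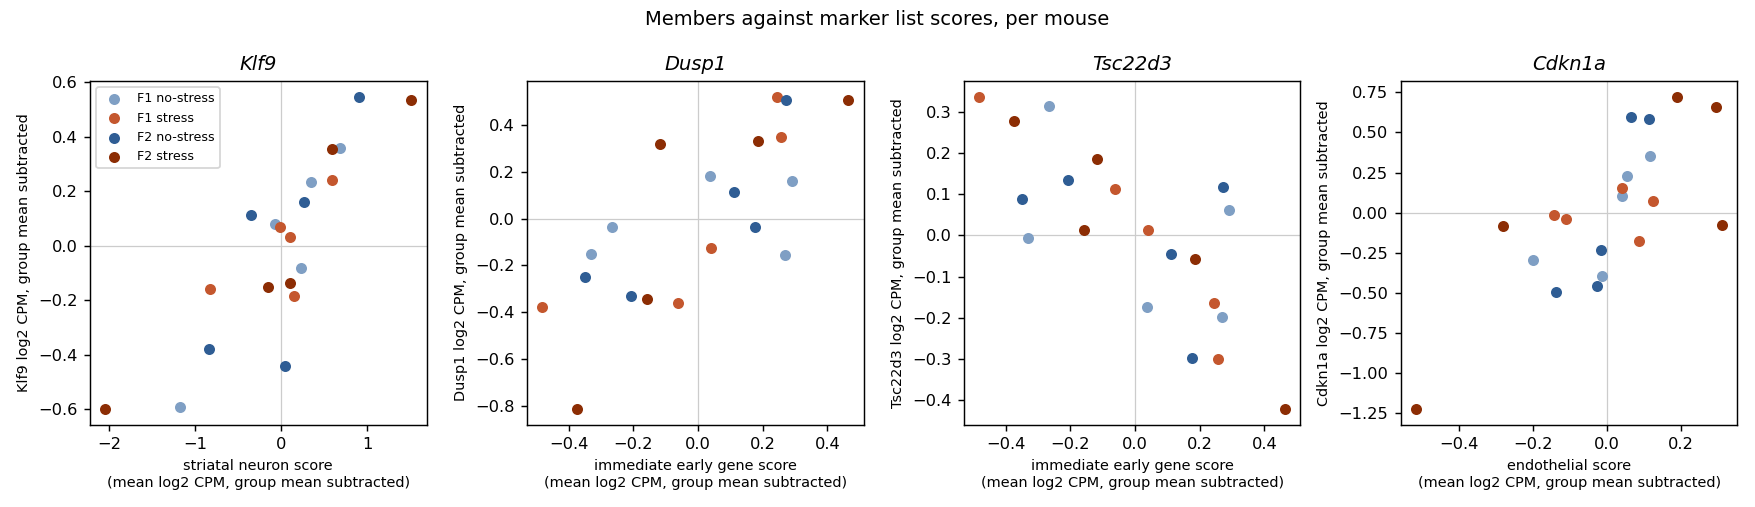
Log2 CPM of Klf9, Dusp1, Tsc22d3 and Cdkn1a in each of 20 mice (y) against the mean log2 CPM of a marker list (x: striatal neuron, immediate early, immediate early and endothelial), both with the group mean subtracted and colours for the 4 groups. Klf9, Dusp1 and Cdkn1a are higher in mice with a higher score (r = 0.86, 0.75 and 0.74), and Tsc22d3 is lower (r = -0.76).

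The genes most alike to each of the 10 across the 20 mice were listed among 12223 genes with a mean of at least 5 CPM, as a description. Those of Klf9 were Sec14l1 (r = 0.98), Dach1 (0.97) and Add1 (0.97). Dusp1 was closest to Arc (0.90), an immediate early gene of synapses, Hapln1 (0.87) and Snap25 (0.85). Tsc22d3 was closest to Ucp2 (0.91), Arhgef40 (0.89) and Gjb6 (0.87), a connexin of astrocytes. Cdkn1a was closest to Abi3bp (0.91), Trp53inp2 (0.90) and Cabp1 (0.89), and Errfi1 to Nup35 (0.88), 1700052K11Rik (0.76) and Ltv1 (0.75). The closest genes were Ppm1m (0.87), Coq8b (0.83) and Cc2d1a (0.82) for Zbtb16, and Anapc16 (0.85), Rdh5 (0.84) and Rcan1 (0.81) for Ddit4. Nfkbia was closest to Hspa2 (0.85), Acvr1b (0.80) and Spout1 (0.78), Per1 to Coro7 (0.85), Dtx3 (0.82) and Pde4dip (0.80), and Sgk1 to March4 (0.78), Sema3g (0.78) and Nos3 (0.76). These r values come from 20 mice that share libraries and punches.

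The receptor and its other targets were examined as context for the 10 genes. Of 24 further genes known to be induced by glucocorticoids, 21 were tested. Fkbp5, a receptor co-chaperone often used as a readout of glucocorticoid action, was at 42.8 ± 6.28 CPM in F2 stress and 46.4 ± 6.50 CPM in F2 no-stress mice (log2 fold change -0.12 ± 0.118, edgeR adjusted p = 0.567), and at -0.02 in F1. In F2, 1 of the 21 was called higher and none lower: Sesn1, which encodes a stress-induced inhibitor of mTOR signalling, at 0.30 ± 0.0803 (adjusted p = 0.0258; 0.0949 with the GC offset). That count stands beside 2.64% of all genes called higher. The median of the 21 in F2 was -0.03, and 0.18 with the GC offset, where that of all genes was 0.04 and none of the 21 was called. Nedd9 was lower in F2 than in F1 of the no-stress lineage (-0.39, edgeR adjusted p = 0.0467; 0.160 with the GC offset), and none of the 21 was called in F1, in the difference of the effects or in the stress lineage.

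Nr3c1, the glucocorticoid receptor gene, was higher in F2 stress than in F2 no-stress mice, at 107.4 ± 12.3 against 86.7 ± 5.85 CPM (log2 fold change 0.31 ± 0.0939, edgeR adjusted p = 0.0478). With the GC and length offset it was 0.19 with an adjusted p of 0.387. Nr3c2, the mineralocorticoid receptor gene, was at 0.04 in F2 (adjusted p = 0.831) and at -0.30 ± 0.0989 in F1 (edgeR adjusted p = 0.739). Of the 14 genes for receptors, chaperones and coregulators, 3 were called higher in F2 and 1 lower, beside 2.64% and 5.28% of all genes. The 3 were Nr3c1 and the chaperone genes Dnaja1 and Ptges3 (both 0.33). In the difference of the effects 1 of the 14 was called lower, as were 1.68% of all genes. With the offset none of the 14 was called in either comparison (in F2, Dnaja1 was at 0.19 and Ptges3 at 0.17).

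The pathways on which the 10 genes act are given beside the 7.92% of all genes called in F2. Of 10 genes of the NF-kappa-B pathway, where Nfkbia acts, none was called in any comparison (5 had an unadjusted p below 0.05 in F2, against 25.6% of all genes), and their F2 median was -0.28, or -0.07 with the GC offset. Nfkbia itself was at 0.33, or 0.40 with the offset. Of 10 EGF receptor and MAP kinase phosphatase genes, the partners of Errfi1 and Dusp1, none was called and none had an unadjusted p below 0.05 in F2. Of 9 mTOR regulators, Tsc2 was called lower (-0.32 ± 0.0831, edgeR adjusted p = 0.0251; -0.11 and 0.463 with the GC offset). Of 9 tested p53 targets, with which Cdkn1a is usually grouped, Trp53inp1 was called higher (0.48 ± 0.130, edgeR adjusted p = 0.0302; 0.109 with the offset). Of 16 other clock genes, the partners of Per1, none was called between lineages, and Bhlhe41 was lower in F2 than in F1 of the no-stress lineage (-0.51, edgeR adjusted p = 0.0496; 0.179 with the offset).

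Of the 19 immediate early genes, which overlap Dusp1 in their induction by neuronal activity, 3 were called lower in F2 and none higher, where 5.28% of all genes were called lower and 2.64% higher. Junb was at -1.24 ± 0.225 (edgeR adjusted p = 0.00739), Npas4 at -1.003 ± 0.255 (0.0230) and Ier2 at -0.996 ± 0.248 (0.0207). With the GC offset their adjusted p-values were 0.0650, 0.192 and 0.263. The same 3 were called higher in F2 than in F1 of the no-stress lineage, a comparison with the same F2 no-stress mice. There too the calls ended with the GC offset (adjusted p = 0.115 for Junb, 0.0820 for Npas4 and 0.143 for Ier2). Junb was lower in the difference of the effects (-1.34, edgeR adjusted p = 0.0379; -0.89 and 0.122 with the offset). Dusp1 itself had F2 values from 11.6 to 29.2 CPM in stress and from 16.2 to 29.1 CPM in no-stress mice. Among 10 endothelial markers, Cldn5 was called lower in F2 (-0.49 ± 0.144, edgeR adjusted p = 0.0411, or 0.761 with the offset). Of these markers 6 had positive F2 estimates and 4 negative, with a median of 0.105. In the no-stress lineage 1 endothelial marker was called higher in F2 than in F1, as were 1.47% of all genes, and none with the offset. None of the oligodendrocyte, astrocyte, microglia, mural, striatal, pallial or blood markers was called in any comparison. In F1 all 10 striatal markers were lower in stress mice (median log2 fold change -0.81), with sums of 2942 ± 918 against 5059 ± 1940 CPM. All 10 microglia markers were lower there too (median -0.215). In F2, 3 striatal markers were positive and 7 negative, and in the difference of the effects all 10 were positive (median 0.67). The part of punch makeup in the lineage estimates was not tested.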

How the data were processed

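RNA-seq libraries (TruSeq Stranded mRNA, poly-A) came from 20 mice, 5 in each of 4 groups. The deposited values are whole-number counts per Ensembl gene and mouse. Per the submitters' processing notes, STAR 2.5.3a and GRCm38 were used. The counting tool, its strand setting and the step that made the totals nearly equal are not stated in the sources used here.

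Counts were tested with edgeR 4.0.16 in R 4.3.3 (quasi-likelihood F test, filterByExpr, TMM factors of 0.956 to 1.042, robust, 1 mean per group, all 20 libraries in 1 fit), with Benjamini-Hochberg adjustment over 16727 genes. GC content and length came from GENCODE for 16692 of them, and the offset used splines with 5 degrees of freedom. Other settings used DESeq2 1.42.0, limma-voom 3.58.1, sva 3.50.0, other scalings and filters, composition covariates centred within groups, and each library left out. Correlations used log2 CPM (prior count 2) and 100000 permutations within groups. Figures were drawn with matplotlib 3.10.9. The scripts were tested on simulated data.

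The 10 genes, the lists and the tests were chosen with earlier results of these data known. By the rule for named genes, all 10 are given in every comparison, with Fkbp5, Nr3c1 and Nr3c2, up to 4 called genes per other list by smallest p, and the 3 genes most alike to each of the 10. Some results for genes outside the 10 are not reported here.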

Additional observations from a re-analysis of the deposited data

Results flagged for a closer look

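Zbtb16 in F2 stress replicate 14 stood apart from its group. It had 14.43 CPM, and the other 4 mice had 4.68, 6.42, 6.67 and 6.87 CPM. Its gap to the nearest mouse was 0.775 of the whole range of the group, above the critical value of 0.71 for 5 samples. Of 40 groups checked (10 genes in 4 groups) this was the 1 value so found, and chance flags about 1 group in 20. The same library had the lowest summed level of striatal markers of all 20 (793 CPM). The part of that library's composition in the Zbtb16 value was not tested.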

How the results depend on the processing

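Of 1540 values of the 10 genes under other settings, 1475 kept their direction and their side of the threshold, 6 lost a call (all Errfi1 in F2), 18 gained one and 41 changed sign. No paired analysis was possible because every mouse has a replicate number of its own and the labels name no litter. In all counts below a gene or member is called at an adjusted p below 0.05 unless said.

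In F2 the count of called genes (1324) was 2502 at an adjusted p below 0.1, 2054 with DESeq2, 737 without the low-count filter, 0 with only the groups compared, 2258 with 1 surrogate variable, 8 with the GC content and length offset and 3262 with composition scores. It ran from 241 to 2431 with single libraries left out, lowest without F2 stress replicate 11 and highest without 15, and was 2213 without replicates 14 and 20. The count among the 10 genes (1) was 3 at an adjusted p below 0.1, 2 with DESeq2, 0 with only the groups compared, 4 with the surrogate variable, 0 with the offset, 4 with composition scores, 0 to 2 with libraries left out, and 2 without replicates 14 and 20.

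In F1 (0 genes) it was 1 at an adjusted p below 0.1, 2 with DESeq2, 1 with library totals, 323 with composition scores and 0 to 1 with libraries left out, and 0 among the 10 in every setting. For the difference of the effects (421 genes) it was 1359 at an adjusted p below 0.1, 1240 with DESeq2, 100 without the filter, 0 with the offset, 2179 with composition scores, 0 to 1501 with libraries left out and 1643 without replicates 14 and 20. Among the 10 it was 1 at an adjusted p below 0.1, with DESeq2, with composition scores and without replicates 14 and 20.

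For F2 against F1 in the no-stress lineage (335 genes) it was 1057 at an adjusted p below 0.1, 1028 with DESeq2, 208 with library totals, 61 without the filter, 0 with only the groups compared, 638 with the surrogate variable, 0 with the offset, 1804 with composition scores, 0 to 725 with libraries left out and 631 without replicates 14 and 20. In the stress lineage (2 genes) it was 4, 6 and 1 at an adjusted p below 0.1, with DESeq2 and with limma-voom, 0 with library totals and with only the groups compared, 4 with the offset, 12 with composition scores, 0 to 10 with libraries left out and 14 without replicates 14 and 20. Among the 10 it was 1 (Ddit4) with DESeq2, the offset and composition scores.

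Values that changed sign were close to 0 or moved with 1 setting. With the offset the log2 fold change was 0.047 for Per1 and -0.0075 for Klf9 in F2, 0.031 for Per1 in the difference of the effects, and -0.015 for Ddit4 and -0.13 for Per1 in the no-stress lineage. In F1, Sgk1 was at -0.00058 with DESeq2, -0.0068 with limma-voom, -0.00038 with relative log expression factors and -0.0015 without the filter. With 1 surrogate variable the F1 values were -0.054 for Tsc22d3, -0.0051 for Zbtb16, 0.10 for Klf9, 0.0044 for Errfi1 and 0.017 for Dusp1, that of Tsc22d3 in the no-stress lineage was -0.0039, and that of Klf9 in the stress lineage -0.13. Nfkbia in the no-stress lineage was at 0.084 without replicates 14 and 20.

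With single libraries left out, the F1 values ran from -0.15 to 0.10 for Sgk1, from -0.020 to 0.16 for Tsc22d3 and from -0.11 to 0.011 for Errfi1. The F2 values ran from -0.063 to 0.34 for Cdkn1a, from -0.11 to 0.19 for Klf9 and from -0.077 to 0.21 for Dusp1. Between generations they ran from -0.011 to 0.13 for Tsc22d3 and from -0.090 to 0.084 for Nfkbia in the no-stress lineage, and from -0.10 to 0.18 for Klf9 in the stress lineage. The cause of these changes was not tested. The step that made the totals nearly equal is not stated, and the read depth before it is unknown. The precision of single low values thus cannot be set from these counts.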
